A study of Homo sapiens with 9 samples.

Results

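Methylated cytosines in CpG dinucleotides are read by proteins with a methyl-CpG binding domain and are removed step by step by the TET enzymes and a DNA glycosylase. The genes described here are 9 members of that system, MBD1, MBD2, MBD3, MBD4, TET1, TET2, TET3, TDG and UHRF2, taken by gene symbol from a table of 25886 symbols. All 9 were found, and all 9 passed the filter on low counts that left 16660 genes for testing. They were measured by RNA sequencing of rRNA-depleted total RNA in 9 libraries of cells labelled HT29, an established human colorectal cancer line. The groups were 3 libraries of cells with stable lentiviral knockdown of DNMT1, 3 with stable lentiviral knockdown of DNMT3B and 3 labelled Control, and all 3 groups had been through puromycin selection. DNMT1 maintains methylation after replication, DNMT3B adds it to unmethylated sites, and the stated aim was to learn what follows when each is depleted, the submitters stating that proteasome inhibition lowers both. The labels do not give the number of shRNA sequences or clones per group, nor whether replicates came from separate cultures, nor what vector Control carried. The p-values of the gene tests therefore rest on the variation among 3 libraries a group, and that variation may be technical only. The fit pooled it over the 3 groups and drew it towards that of other genes (6 residual and 25.4 prior degrees of freedom). The common coefficient of variation beyond counting noise was 2.96%.

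Among the readers, MBD1 and MBD2 bind methylated CpG and recruit repressors, and MBD2 does so within the nucleosome remodelling and deacetylase complex, NuRD. MBD3 takes the place of MBD2 in an alternative form of NuRD, and the mammalian MBD3 protein has little preference for methylated DNA. MBD4 joins a methyl-CpG binding domain to a glycosylase that removes thymine left by deamination of methylated cytosine. TET1, TET2 and TET3 oxidise methylcytosine to hydroxymethylcytosine and further to the bases that TDG cuts out, after which base excision repair restores cytosine. UHRF2, a paralogue of the DNMT1 recruiter UHRF1, binds hydroxymethylcytosine.

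Libraries held 23421179 to 24168025 counts in DNMT1 knockdown, 18772187 to 25955343 in DNMT3B knockdown and 26923932 to 33666224 in Control, so Control was the deepest group. Values are CPM, the count of a gene scaled to the TMM-adjusted library size. A gene was called changed at an edgeR quasi-likelihood adjusted p below 0.05 over all tested genes. The lowest count of any of the 9 genes in any library was 407, for MBD4. DNMT1 mRNA stood at 55.0% of Control in its own knockdown (edgeR adjusted p = 2.83e-20) and DNMT3B mRNA at 49.9% in its own (1.49e-17). Of 11 colon epithelial markers 6 averaged at least 1 CPM in each group, among them EPCAM, KRT8, KRT18 and CDX2, whereas VIL1, CDX1, LGALS4, CDH17 and GPA33 lay below 1 CPM in all 3 groups. The identity of the line was not tested. Leukocyte, endothelial and stromal markers were low apart from CD68, which averaged 18.0 CPM in DNMT1 knockdown, 32.9 CPM in DNMT3B knockdown and 17.7 CPM in Control, and COL1A1, at 21.5, 27.5 and 17.6 CPM in the same order of groups. The summed level of the 7 leukocyte markers ran from 18.4 to 19.7 CPM in DNMT1 knockdown, from 31.2 to 36.2 CPM in DNMT3B knockdown and from 18.0 to 19.2 CPM in Control, with PTPRC and CD3E below 0.2 CPM throughout. The sums were 23.5 to 28.4, 32.5 to 33.8 and 20.7 to 25.6 CPM for the 7 stromal markers, with COL1A2 and DCN at 0 counts in every library, and 2.23 to 2.53, 4.40 to 5.12 and 2.89 to 3.39 CPM for the 5 endothelial markers. The part of these genes in the results below was not tested. In bulk RNA, fewer cells expressing a gene and less of its RNA per cell cannot be told apart.

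Most of the 9 genes moved in each knockdown, and by small amounts. TET1, TET2 and MBD2 were higher and MBD3 and UHRF2 lower than Control in both knockdowns. The call of MBD2 with DNMT1 knockdown was lost under some other settings and without some libraries. TDG was called lower with DNMT1 knockdown, and MBD1 and TET3 were called higher with DNMT3B knockdown. For these 3 genes the direct comparison of the knockdowns also passed the test. MBD4 was not called in any of the 3 comparisons. With DNMT1 knockdown 3 members were higher, 3 lower and 3 not called, against 41.8% of all tested genes called in either direction, 21.0% higher and 20.8% lower. With DNMT3B knockdown 5 were higher, 2 lower and 2 not called, against 47.7% of all tested genes, 23.1% higher and 24.6% lower. The median absolute log2 fold change of the 9 genes was 0.154 with DNMT1 knockdown and 0.175 with DNMT3B knockdown, beside 0.147 and 0.17 over all tested genes. Against Control, then, they moved as a group about as far as the median gene. Both comparisons use the same 3 Control libraries.

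**Figure D1:**
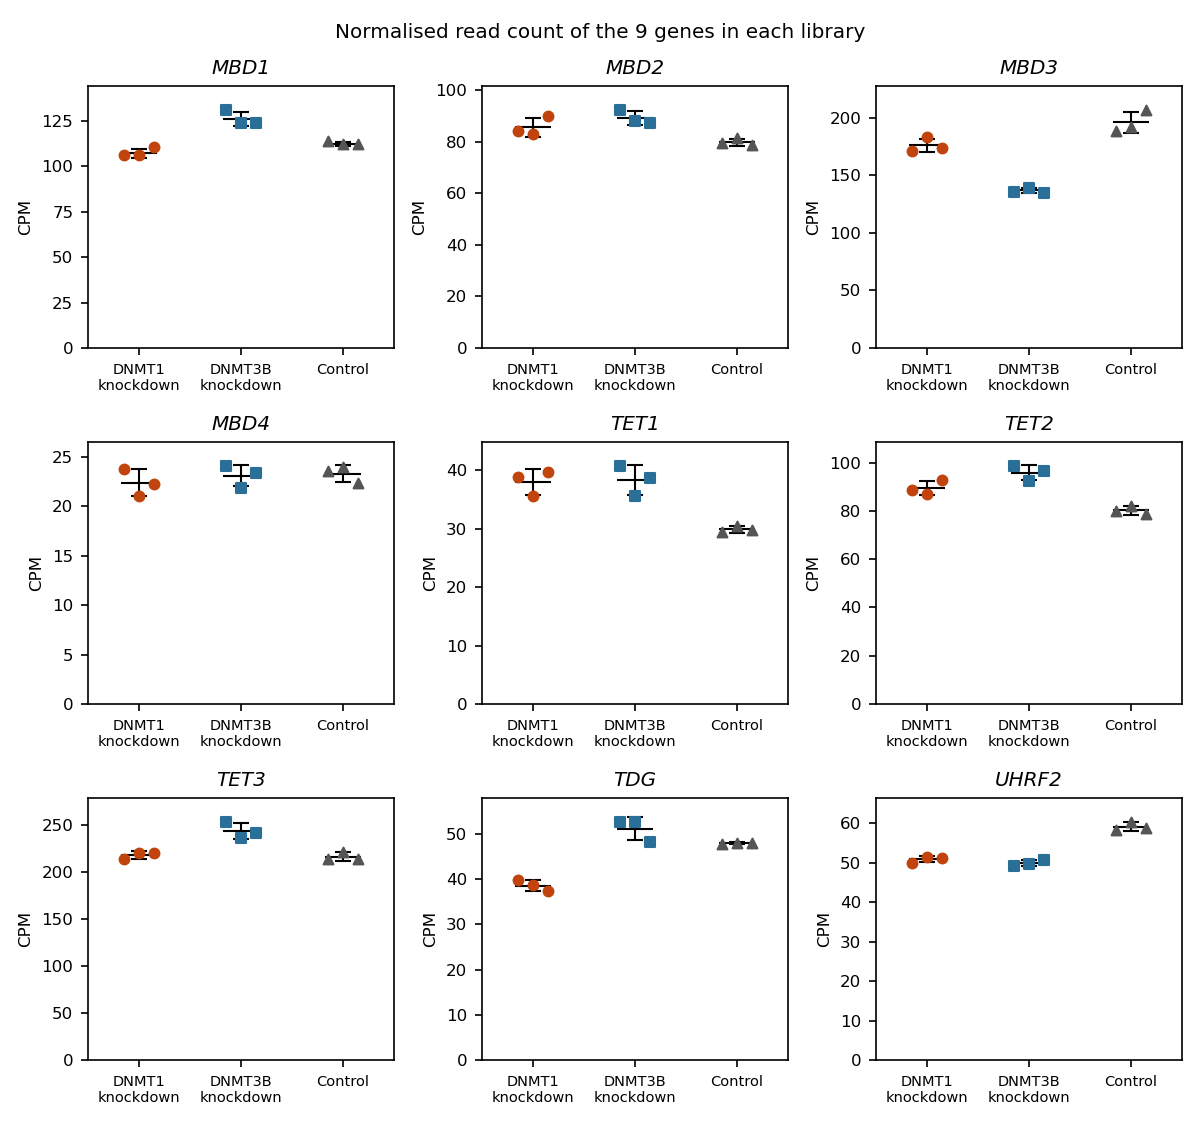
Normalised read count (CPM, linear axes from 0) of each of the 9 genes in the 3 DNMT1 knockdown, 3 DNMT3B knockdown and 3 Control libraries. Points are libraries, and bars give the mean ± SD. MBD3 averaged 176, 137 and 196 CPM and TET1 38.1, 38.4 and 29.9 CPM in DNMT1 knockdown, DNMT3B knockdown and Control.

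The genes with the largest fall and the largest rise against Control, MBD3 and TET1, differ in the DNA just before their starts, which is shown for that reason. The sequences are the 250 bases before the RefSeq start (GRCh38.p14) on the gene's own strand, with CpG dinucleotides, the sites of methylation, in capitals. The MBD3 stretch is chr19:1592866-1593115, minus strand, and the TET1 stretch is chr10:68560087-68560336, plus strand, the most upstream of 3 TET1 starts in the table.
MBD3: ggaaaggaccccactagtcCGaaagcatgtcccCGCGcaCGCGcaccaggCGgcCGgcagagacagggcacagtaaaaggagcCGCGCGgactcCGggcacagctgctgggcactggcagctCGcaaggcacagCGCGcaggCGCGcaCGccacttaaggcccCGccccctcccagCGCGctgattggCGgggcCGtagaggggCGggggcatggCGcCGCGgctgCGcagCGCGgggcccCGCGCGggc
TET1: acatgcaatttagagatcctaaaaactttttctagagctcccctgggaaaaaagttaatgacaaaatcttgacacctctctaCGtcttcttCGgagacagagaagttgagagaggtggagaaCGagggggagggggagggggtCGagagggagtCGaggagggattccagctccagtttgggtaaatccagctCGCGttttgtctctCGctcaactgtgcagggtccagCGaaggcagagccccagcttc
The MBD3 stretch held 32 CpG and 74.8% G and C, and 90.5% of 35116 RefSeq promoters of the same length held fewer CpG. The TET1 stretch held 9 CpG and 51.6% G and C, and 45.9% of promoters held fewer, the median being 11. Across the 13 such stretches listed for the 9 genes the count ran from 4 to 37. The other TET1 starts held 4 and 11 CpG, the TET2 starts 10 and 34, and the TET3 starts 37 and 27. The stretches of MBD1, MBD2, MBD4, TDG and UHRF2 held 23, 21, 26, 22 and 23. A link between CpG count and direction of change was not tested. The GC box letters GGGCGG, searched on both strands, matched 2 times in the MBD3 stretch and 0 times in the TET1 stretch, and 42.6% of all promoters held at least 1 match. The libraries measure RNA, so the methylation of these CpG was not measured.

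MBD3 (chromosome 19, 1573596 to 1592801, minus strand, GRCh38) had the smallest p of the 9 genes in the test across the 3 groups (edgeR adjusted p = 8.03e-13). Its CPM values were 171, 183 and 174 in DNMT1 knockdown, 136, 139 and 135 in DNMT3B knockdown, and 189, 192 and 207 in Control. The 3 groups did not overlap, and the DNMT3B knockdown was the lowest. MBD3 fell to 69.7% of Control with DNMT3B knockdown (137 ± 2.32 CPM against 196 ± 9.44 CPM, SD, n = 3 each, log2 fold change -0.52 ± 0.037 SE, edgeR adjusted p = 4.06e-13), and 10.8% of all tested genes had a larger absolute change there. With DNMT1 knockdown it fell to 89.9% of Control (log2 fold change -0.15 ± 0.036 SE, edgeR adjusted p = 0.000905). The direct comparison gave a 1.29-fold higher level in the DNMT1 than in the DNMT3B knockdown (log2 fold change 0.37 ± 0.038 SE, edgeR adjusted p = 1.42e-09). In the GENCODE annotation 767 exonic bases, 9.78% of the MBD3 exon length, are shared with the same-strand gene AC005943.1, which has no row in the table. Whether reads in that stretch were counted for MBD3 or left out is not given in the sources used here.

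MBD2 (chromosome 18, 54151601 to 54224788, minus strand) moved the other way from MBD3. Its CPM values were 84.1, 83.0 and 89.8 in DNMT1 knockdown, 92.3, 88.0 and 87.2 in DNMT3B knockdown, and 79.3, 81.3 and 78.6 in Control. Every knockdown library lay above every Control library. MBD2 rose to 112% of Control with DNMT3B knockdown (log2 fold change 0.16 ± 0.039 SE, edgeR adjusted p = 0.000831). The rise with DNMT1 knockdown was smaller (107% of Control, log2 fold change 0.10 ± 0.039 SE, edgeR adjusted p = 0.0305) and was lost without DNMT1 knockdown replicate 3 (adjusted p = 0.224), without Control replicate 1 or 3 (0.0722 and 0.0910), by DESeq2 (0.0679), with no filter on low counts (0.0663) and after thinning to the smallest library total (0.0531). The range of its edgeR, limma and DESeq2 adjusted p over all alternatives was 0.0193 to 0.224. The knockdowns did not differ detectably from each other (log2 fold change -0.06, 95% interval -0.14 to 0.02).

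Because MBD2 and MBD3 occupy the same place in NuRD, their balance was followed library by library from levels per kilobase of annotated exon (RPKM). The log2 ratio of MBD3 to MBD2 was 0.59, 0.70 and 0.52 in DNMT1 knockdown, 0.13, 0.23 and 0.19 in DNMT3B knockdown, and 0.82, 0.81 and 0.96 in Control. MBD3 was the higher of the pair in every library, and the 3 groups did not overlap. The mean ratio differed from Control by -0.26 with DNMT1 knockdown and by -0.68 with DNMT3B knockdown. The DNMT1 knockdown exceeded the DNMT3B knockdown by 0.42. Each of these 3 differences had an exact two-sided permutation p of 0.1, the smallest that 3 against 3 libraries can give, and an adjusted p of 0.12 over the 12 such tests made here.

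MBD1 (chromosome 18, 50266882 to 50281774, minus strand) split the knockdowns. Its CPM values were 106, 106 and 110.5 in DNMT1 knockdown, 131, 124 and 124 in DNMT3B knockdown, and 114, 112 and 112 in Control. The DNMT3B knockdown libraries were the highest and the DNMT1 knockdown libraries the lowest, with no overlap among the 3 groups. MBD1 rose to 112% of Control with DNMT3B knockdown (log2 fold change 0.17 ± 0.035 SE, edgeR adjusted p = 0.000190). Its value with DNMT1 knockdown, 95.5% of Control, was not called (95% interval of the log2 fold change -0.14 to 0.01, edgeR adjusted p = 0.134). Between the knockdowns it was lower in the DNMT1 knockdown by a log2 fold change of -0.23 ± 0.036 SE (edgeR adjusted p = 2.43e-06).

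MBD4 (chromosome 3, 129430944 to 129440179, minus strand) had CPM values of 23.8, 21.0 and 22.3 in DNMT1 knockdown, 24.1, 21.9 and 23.4 in DNMT3B knockdown, and 23.6, 24.0 and 22.4 in Control. All 3 groups overlapped. Its log2 fold change had a 95% interval of -0.17 to 0.06 with DNMT1 knockdown and of -0.12 to 0.11 with DNMT3B knockdown (edgeR adjusted p = 0.449 and 0.939). Of its exon length, 4.29% lies under exons of IFT122 on the opposite strand, which was itself called higher with DNMT3B knockdown (29.3 ± 1.80 CPM against 26.2 ± 1.48 CPM in Control, SD, n = 3 each, edgeR adjusted p = 0.0226). The use of strand in counting is not given in the sources used here, so reads in that stretch are uncertain for either gene.

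**Figure D2:**
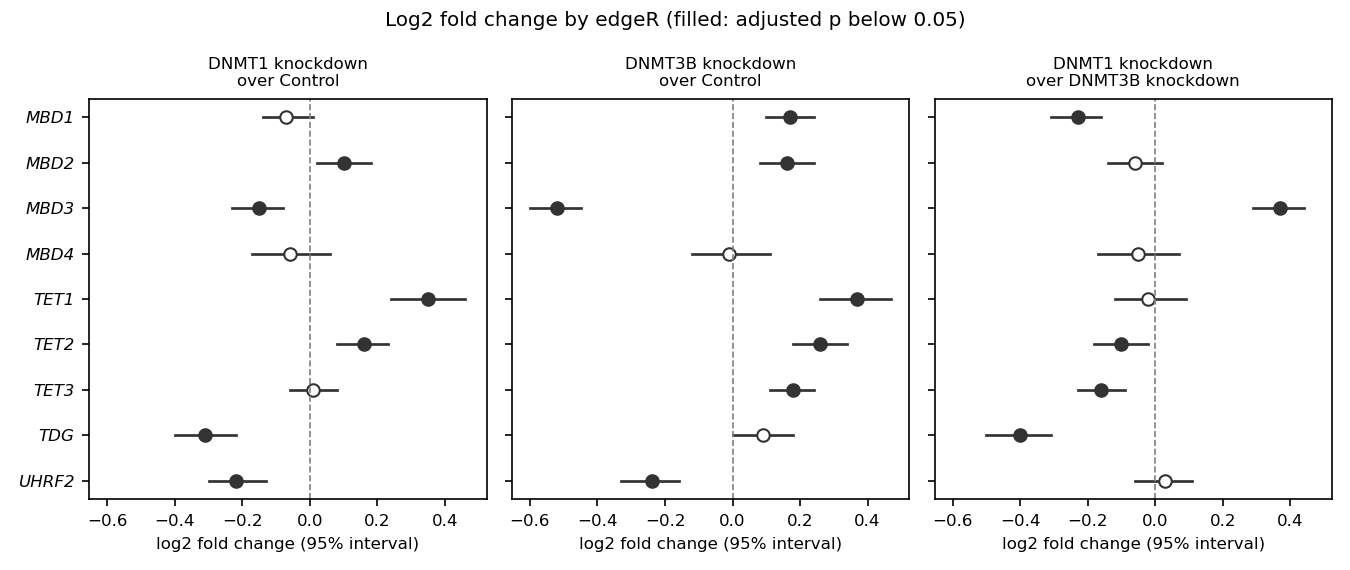
Log2 fold change of the 9 genes (points) with 95% intervals (lines) from the edgeR fit, for DNMT1 knockdown over Control, DNMT3B knockdown over Control and DNMT1 knockdown over DNMT3B knockdown. Filled points had an adjusted p below 0.05. The lowest point is MBD3 with DNMT3B knockdown (-0.52) and the highest value is 0.37, for TET1 with DNMT3B knockdown and MBD3 between the knockdowns.

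TET1 and TET2 rose in both knockdowns and TET3 with DNMT3B knockdown. TET1 (chromosome 10, 68560656 to 68694482, plus strand) had CPM values of 38.8, 35.6 and 39.8 in DNMT1 knockdown, 40.8, 35.7 and 38.7 in DNMT3B knockdown, and 29.4, 30.5 and 29.8 in Control. Every knockdown library lay above every Control library, and the knockdowns overlapped each other. TET1 rose to 127% of Control with DNMT1 knockdown (38.1 ± 2.22 CPM against 29.9 ± 0.573 CPM, SD, n = 3 each, log2 fold change 0.35 ± 0.052 SE, edgeR adjusted p = 2.30e-06). With DNMT3B knockdown it rose to 129% of Control (log2 fold change 0.37 ± 0.053 SE, edgeR adjusted p = 7.92e-07). No difference between the knockdowns was detected (log2 fold change -0.02, 95% interval -0.12 to 0.09, edgeR adjusted p = 0.835).

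TET2 (chromosome 4, 105145875 to 105279816, plus strand) had CPM values of 88.5, 87.0 and 92.7 in DNMT1 knockdown, 98.7, 92.5 and 96.5 in DNMT3B knockdown, and 80.0, 82.2 and 78.7 in Control. Both knockdowns lay wholly above Control and overlapped each other by a narrow margin. TET2 rose to 111% of Control with DNMT1 knockdown (log2 fold change 0.16 ± 0.038 SE, edgeR adjusted p = 0.00136) and to 119.6% of Control with DNMT3B knockdown (log2 fold change 0.26 ± 0.038 SE, edgeR adjusted p = 1.21e-06). The difference between the knockdowns was called at a log2 fold change of -0.10 (edgeR adjusted p = 0.0286), a call that was lost without DNMT1 knockdown replicate 1 or 2 (0.0783 and 0.130) and without DNMT3B knockdown replicate 1 or 3 (0.134 and 0.0839). TET2-AS1, an antisense RNA whose exons do not overlap those of TET2, was low, at 1.17 ± 0.213, 1.22 ± 0.283 and 1.33 ± 0.264 CPM in DNMT1 knockdown, DNMT3B knockdown and Control (SD, n = 3 each) and was not called.

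TET3 (chromosome 2, 73986404 to 74108176, plus strand) had CPM values of 213, 220.0 and 220.0 in DNMT1 knockdown, 253, 236 and 241 in DNMT3B knockdown, and 213, 221 and 213 in Control. The DNMT3B knockdown libraries stood above all the others, while the DNMT1 knockdown and Control ranges overlapped. TET3 rose to 113% of Control with DNMT3B knockdown (log2 fold change 0.18 ± 0.034 SE, edgeR adjusted p = 7.34e-05). With DNMT1 knockdown its log2 fold change had a 95% interval of -0.06 to 0.08 (edgeR adjusted p = 0.778). The knockdowns differed by a log2 fold change of -0.16 ± 0.034 SE, lower in the DNMT1 knockdown (edgeR adjusted p = 0.000248).

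The summed TET level per kilobase was mostly TET3 in every library. TET3 made up 65.1 ± 1.08% of it in DNMT1 knockdown, 66.6 ± 0.427% in DNMT3B knockdown and 68.5 ± 0.0642% in Control (SD, n = 3 each). TET1 made up 15.0 ± 0.751%, 13.9 ± 0.422% and 12.6 ± 0.113% in the same order of groups, and TET2 19.9 ± 0.349%, 19.6 ± 0.204% and 19.0 ± 0.133%. In either knockdown every library had a larger TET1 and TET2 share, and a smaller TET3 share, than every Control library. Those 6 differences from Control each had an exact permutation p of 0.1, the smallest possible, and an adjusted p of 0.12. Between the knockdowns the ranges of the TET2 and TET3 shares overlapped (exact permutation p = 0.3 and 0.2), while those of TET1 met at 14.2% without crossing (exact permutation p = 0.1).

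**Figure D3:**
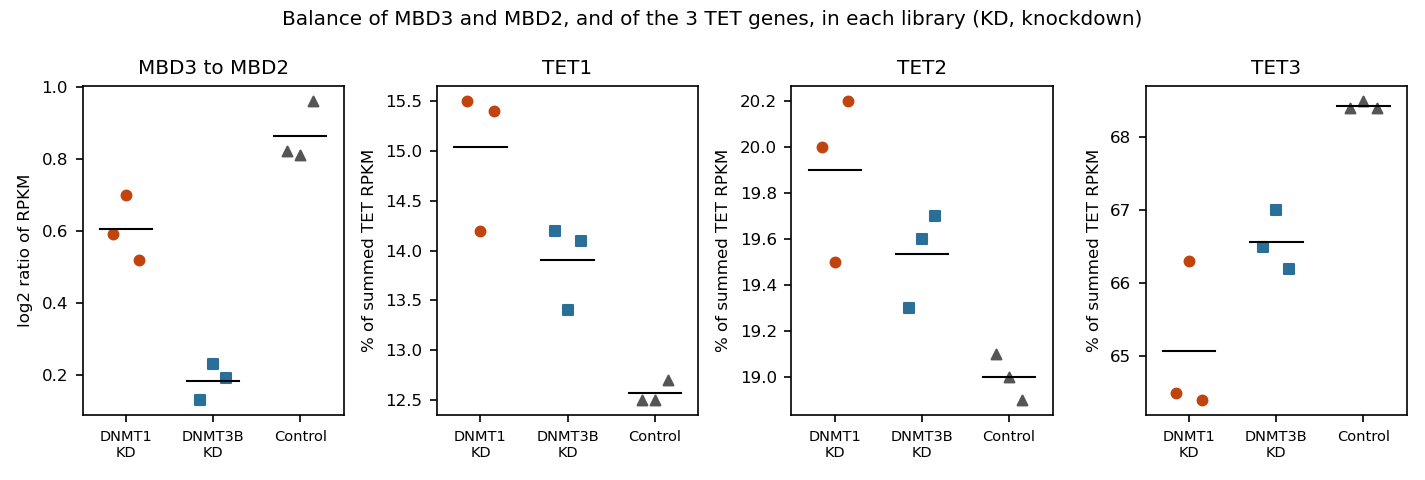
Log2 ratio of MBD3 to MBD2 (RPKM over RPKM) and percent of the summed TET RPKM contributed by TET1, TET2 and TET3, in each DNMT1 knockdown, DNMT3B knockdown and Control library. Points are libraries and lines group means, and the vertical axes do not start at 0. The MBD3 to MBD2 ratio averaged 0.61, 0.18 and 0.86, and the TET1 share 15.0%, 13.9% and 12.6%.

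TDG (chromosome 12, 103965804 to 103988874, plus strand), the glycosylase that acts after the TET enzymes, had CPM values of 39.8, 38.8 and 37.3 in DNMT1 knockdown, 52.6, 52.7 and 48.2 in DNMT3B knockdown, and 47.8, 48.0 and 48.1 in Control. The DNMT1 knockdown libraries were below all the others. TDG fell to 80.5% of Control with DNMT1 knockdown (38.6 ± 1.25 CPM against 48.0 ± 0.131 CPM, SD, n = 3 each, log2 fold change -0.31 ± 0.045 SE, edgeR adjusted p = 1.42e-06). With DNMT3B knockdown it stood at 106% of Control and was not called (edgeR adjusted p = 0.0939), although it passed the test without DNMT3B knockdown replicate 3 (log2 fold change 0.14, adjusted p = 0.0233). Its adjusted p ranged from 0.0233 to 0.280 over all alternatives. The direct comparison was the largest among the 9 genes, at a log2 fold change of -0.40 ± 0.047 SE, lower in the DNMT1 knockdown (edgeR adjusted p = 1.65e-08).

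UHRF2 (chromosome 9, 6413151 to 6507054, plus strand) had CPM values of 50.0, 51.6 and 51.2 in DNMT1 knockdown, 49.3, 49.7 and 50.8 in DNMT3B knockdown, and 58.3, 60.4 and 58.8 in Control. Every knockdown library lay below every Control library. UHRF2 fell to 86.1% of Control with DNMT1 knockdown (log2 fold change -0.22 ± 0.040 SE, edgeR adjusted p = 5.38e-05) and to 84.4% with DNMT3B knockdown (log2 fold change -0.24 ± 0.040 SE, edgeR adjusted p = 7.54e-06). No difference between the knockdowns was detected (log2 fold change 0.03, 95% interval -0.06 to 0.11).

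In the direct comparison of the knockdowns 1 member was higher and 4 lower in the DNMT1 knockdown, against 45.2% of all tested genes called in either direction, 24.3% higher and 20.9% lower. The median absolute log2 fold change of the 9 genes between the knockdowns was 0.103, smaller than the 0.165 over all tested genes. The groups did not overlap for 7 of the 9 genes between DNMT1 knockdown and Control, 8 of 9 between DNMT3B knockdown and Control, and 4 of 9 between the knockdowns. The shares over all tested genes were 49.4%, 54.1% and 52.2%.

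Levels of different genes can be set side by side only per unit of length. In Control the order by RPKM was MBD3 (25.0 ± 1.20, SD, n = 3), TET3 (17.6 ± 0.391), MBD1 (16.7 ± 0.167), MBD2 (13.7 ± 0.241), TDG (9.79 ± 0.0267), MBD4 (6.94 ± 0.249), UHRF2 (5.97 ± 0.107), TET2 (4.88 ± 0.108) and TET1 (3.22 ± 0.0617). No neighbours in that order overlapped between libraries. In the DNMT3B knockdown TET3 (19.8 ± 0.702 RPKM) and MBD1 (18.8 ± 0.566 RPKM) came before MBD3 (17.4 ± 0.296 RPKM), and the first pair overlapped. In the DNMT1 knockdown MBD3 remained the highest at 22.4 ± 0.750 RPKM. TET2 stood above UHRF2 in both knockdowns, at 5.43 ± 0.180 against 5.13 ± 0.0817 RPKM with DNMT1 knockdown and 5.82 ± 0.192 against 5.03 ± 0.0755 RPKM with DNMT3B knockdown. The order depends on the gene length used. With the longest annotated transcript in place of the union of exons, UHRF2 came next after MBD3, MBD1 and TET3 in Control, at 15.9 RPKM, since its union of exons spans 9919 bases and its longest transcript 3723. By that length the DNMT3B knockdown order was MBD1 (25.8 RPKM), MBD3 (24.8 RPKM) and TET3 (21.4 RPKM). UHRF2 then stood above TET2 in both knockdowns, at 13.7 against 8.79 RPKM with DNMT1 knockdown and 13.4 against 9.43 RPKM with DNMT3B knockdown.

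**Figure D4:**
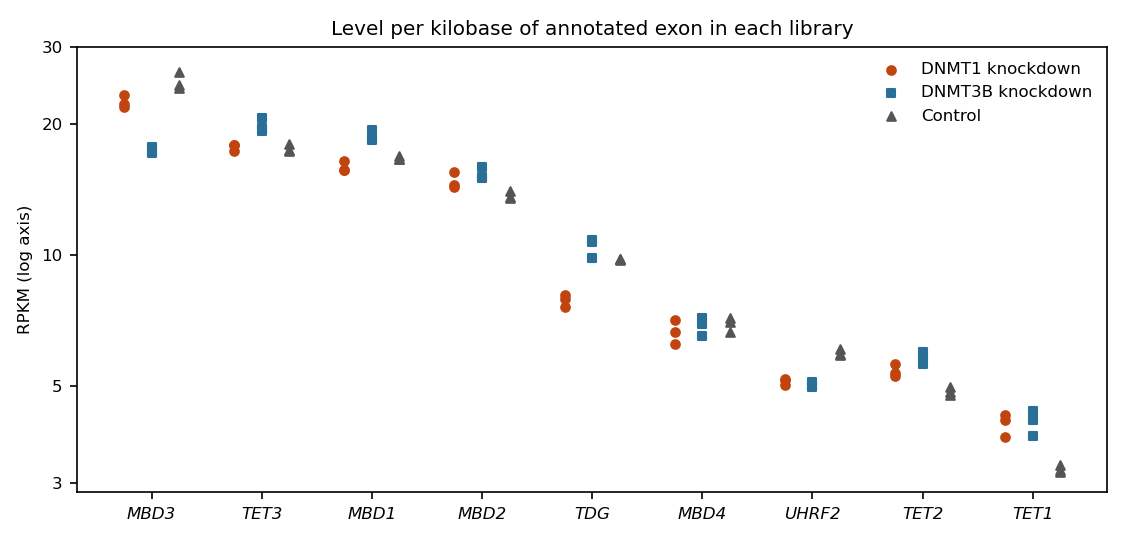
Level of each gene per kilobase of annotated exon (RPKM, log axis) in the DNMT1 knockdown, DNMT3B knockdown and Control libraries, ordered by the Control mean. Each point is a library. MBD3 leads in Control at 25.0 RPKM and TET1 is lowest at 3.22 RPKM, with TET1 at 4.10 and 4.13 RPKM in the DNMT1 and DNMT3B knockdowns.

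By the distance between patterns over the 9 libraries (root mean square difference of centred log2 CPM), the genes nearest to MBD3 among 14749 candidates were TM7SF2 (0.028), LRRC45 (0.038) and PUDP (0.040), where MBD3 itself varied by 0.222 about its mean. TM7SF2 averaged 31.1, 23.6 and 34.4 CPM in DNMT1 knockdown, DNMT3B knockdown and Control. Nearest to TDG were DIAPH3 (0.040), HK2 (0.042) and NUDT17 (0.042), and DIAPH3 averaged 49.4, 62.7 and 59.1 CPM in the same order of groups. Nearest to TET1 were LPCAT2 (0.031), CRTC1 (0.037) and ATXN7L1 (0.038), and CRTC1 averaged 59.9, 61.9 and 47.4 CPM.

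The partners of these genes were followed in lists of the pathway. Over all tested genes the median log2 fold change was -0.002 with DNMT1 knockdown and 0.002 with DNMT3B knockdown, beside which the medians of the lists can be read. The counts of each list stand against 21.0% of all tested genes higher and 20.8% lower with DNMT1 knockdown, and 23.1% higher and 24.6% lower with DNMT3B knockdown. Of 7 other genes listed as methyl-CpG readers, 3 rose and 1 fell with DNMT1 knockdown and 3 rose and 2 fell with DNMT3B knockdown. The median log2 fold change of the list was 0.05 in both. Over all tested genes 41.8% and 47.7% were called in either direction. ZBTB33 (Kaiso), a zinc finger reader of methylated CpG, rose in both, to 66.6 ± 1.83 CPM with DNMT1 knockdown and 67.7 ± 0.183 CPM with DNMT3B knockdown, against 58.6 ± 1.57 CPM in Control (SD, n = 3 each). MBD5 had log2 fold changes of 0.27 with DNMT1 knockdown and 0.13 with DNMT3B knockdown (edgeR adjusted p = 2.68e-05 and 0.0296), the second lost by DESeq2, with no filter on low counts, and without DNMT3B knockdown replicate 2 or 3 or Control replicate 2. MBD6 rose with DNMT3B knockdown (0.27, edgeR adjusted p = 3.25e-05) and was at -0.01 with DNMT1 knockdown (0.927). MBD5 and MBD6 are listed because they carry the domain named for methyl-CpG binding, and whether they bind methylated CpG was not tested. ZBTB4, another zinc finger reader, rose with DNMT1 knockdown (103 ± 4.37 CPM against 92.4 ± 3.55 CPM in Control) and fell with DNMT3B knockdown (81.7 ± 3.27 CPM), and the knockdowns differed in the direct test (log2 fold change 0.33, edgeR adjusted p = 5.32e-08). UHRF1, the paralogue of UHRF2, was at a log2 fold change of -0.13 with DNMT1 knockdown and -0.34 with DNMT3B knockdown (edgeR adjusted p = 0.00182 and 6.87e-10).

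Of 13 NuRD subunits other than MBD2 and MBD3, 4 rose and 3 fell with DNMT1 knockdown (median log2 fold change 0.02), and 2 rose and 7 fell with DNMT3B knockdown (median -0.11). The number called with DNMT1 knockdown, 7 of 13, is near the 41.8% of all tested genes, and with DNMT3B knockdown 24.6% of all tested genes fell. The neuronal-type remodeller CHD5 fell with DNMT1 knockdown (log2 fold change -0.38, edgeR adjusted p = 3.18e-06), where the scaffold subunit GATAD2B (0.23) and the histone chaperone RBBP4 (0.16) rose. With DNMT3B knockdown the histone chaperone RBBP7 (-0.25), CDK2AP1 (-0.19) and the deacetylase HDAC1 (-0.15) fell with the smallest adjusted p of the list. HDAC1 averaged 173 ± 5.54 CPM there against 192 ± 1.82 CPM in Control (SD, n = 3 each, edgeR adjusted p = 0.000273). The fall of MBD3 was larger than that of any listed subunit there. Several calls in this list depended on single libraries or settings. With DNMT1 knockdown the falls of RBBP7 and CDK2AP1 (-0.10 each) were lost in 9 of 19 alternatives each, and the number of falls in the list ran from 1 to 4. With DNMT3B knockdown the rises of GATAD2A (0.10) and GATAD2B (0.11) were both lost without DNMT3B knockdown replicate 1 or without Control replicate 1, which left 0 rises, and the fall of the remodeller CHD4 (-0.08, edgeR adjusted p = 0.0443) was lost in 14 of 19.

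In the base excision repair list, which completes the work of TDG and MBD4, 1 of 14 genes rose and 7 fell with DNMT1 knockdown (median log2 fold change -0.07), and 1 rose and 6 fell with DNMT3B knockdown (median -0.09). Of all tested genes 20.8% fell with DNMT1 knockdown and 24.6% with DNMT3B knockdown, and the 7 of 14 called in the DNMT3B knockdown are near the 47.7% called overall. The gene that rose in both was APEX1, the endonuclease that cuts the abasic site left by a glycosylase (log2 fold change 0.20 with DNMT1 knockdown and 0.10 with DNMT3B knockdown). Its call with DNMT3B knockdown (edgeR adjusted p = 0.0183) was lost without DNMT3B knockdown replicate 3, Control replicate 1 or Control replicate 3. With DNMT1 knockdown the glycosylase NEIL3 (27.6 ± 1.57 CPM against 37.8 ± 1.07 CPM in Control, SD, n = 3 each, edgeR adjusted p = 6.39e-09) and the strand-break sensor PARP1 (log2 fold change -0.25, 6.24e-07) fell. The fall of SMUG1 there (log2 fold change -0.13, edgeR adjusted p = 0.0490) held in only 5 of 19 alternatives, and its groups overlapped. With DNMT3B knockdown the uracil glycosylase UNG (log2 fold change -0.38, edgeR adjusted p = 1.31e-10) and the flap endonuclease FEN1 (-0.30, 5.88e-07) fell.

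Genes listed as TET cofactors and partners included those that make or clear metabolites acting on TET enzymes. Of 13 tested among 14 listed, 2 rose and 7 fell with DNMT1 knockdown (median log2 fold change -0.17), and 2 rose and 10 fell with DNMT3B knockdown (median -0.27), where 20.8% and 24.6% of all tested genes fell. GADD45G, a fall in both, was near the floor, at 0.488 and 0.568 CPM against 1.01 CPM in Control. Both of its calls were lost with the filter of at least 1 CPM in 3 libraries, and the call with DNMT3B knockdown held in 15 of 19 alternatives. D2HGDH, which clears the TET inhibitor D-2-hydroxyglutarate, fell with DNMT3B knockdown (9.87 ± 0.321 CPM against 15.4 ± 0.498 CPM in Control, SD, n = 3 each, log2 fold change -0.64, edgeR adjusted p = 4.19e-09). With DNMT1 knockdown it stood at 14.9 ± 0.657 CPM and was not called (edgeR adjusted p = 0.603). CXXC5, whose zinc finger binds unmethylated CpG and which is known to interact with TET2, rose with DNMT1 knockdown (67.2 ± 4.11 CPM) and fell with DNMT3B knockdown (40.0 ± 1.28 CPM), against 50.0 ± 0.700 CPM in Control, and the direct test gave a log2 fold change of 0.75 (edgeR adjusted p = 1.66e-14). The stress-response gene GADD45B fell with DNMT1 knockdown (log2 fold change -0.60, edgeR adjusted p = 3.45e-10) and its relative GADD45A rose with DNMT3B knockdown (0.50, 2.18e-09). SMAD3, a TGF-beta signal transducer, rose in both, by 0.63 with DNMT1 knockdown and 0.41 with DNMT3B knockdown.

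Of 6 readers of unmethylated CpG, with DNMT1 knockdown none rose and 1 fell, and with DNMT3B knockdown 2 rose and 2 fell, against 41.8% and 47.7% of all tested genes called. The demethylase KDM2B was among the falls (log2 fold change -0.11, edgeR adjusted p = 0.0118, lost without DNMT3B knockdown replicate 2 or Control replicate 1). The other fall, FBXL19 (-0.09, edgeR adjusted p = 0.0413), was lost in 11 of 19 alternatives, and without DNMT3B knockdown replicate 2 the list had 0 falls. The histone methyltransferase KMT2B was lower with DNMT1 knockdown (log2 fold change -0.14, edgeR adjusted p = 0.00973, lost without DNMT1 knockdown replicate 1 or Control replicate 2) and higher with DNMT3B knockdown (0.24, 3.62e-05). KMT2A rose with DNMT3B knockdown (0.16, 0.000347). Of 8 genes that work with MBD1 in silencing through histone methylation, 2 fell with DNMT1 knockdown, while with DNMT3B knockdown 2 fell and 2 rose, again against 41.8% and 47.7% called over all tested genes. SETDB1, the histone methyltransferase that MBD1 recruits, rose with DNMT3B knockdown (118 ± 0.517 CPM against 102 ± 1.86 CPM in Control, SD, n = 3 each, edgeR adjusted p = 4.65e-06). With DNMT1 knockdown its mean was 107 ± 2.75 CPM, which was not called (edgeR adjusted p = 0.0739). The replication-coupled histone chaperones CHAF1A and CHAF1B fell in both, CHAF1B by log2 fold changes of -0.15 and -0.24. Without Control replicate 2, CHAF1A was not called with DNMT1 knockdown. Among 3 tested DNA methyltransferases, DNMT3A, which was not targeted, fell with DNMT3B knockdown (24.7 ± 1.56 CPM against 36.0 ± 1.02 CPM in Control, SD, n = 3 each, edgeR adjusted p = 4.07e-10). With DNMT1 knockdown it averaged 37.3 ± 1.03 CPM and was not called (edgeR adjusted p = 0.432). DNMT1 itself was called higher with DNMT3B knockdown (488 ± 1.95 CPM against 458 ± 10.3 CPM in Control, edgeR adjusted p = 0.0171), a call lost without Control replicate 1.

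**Figure D5:**
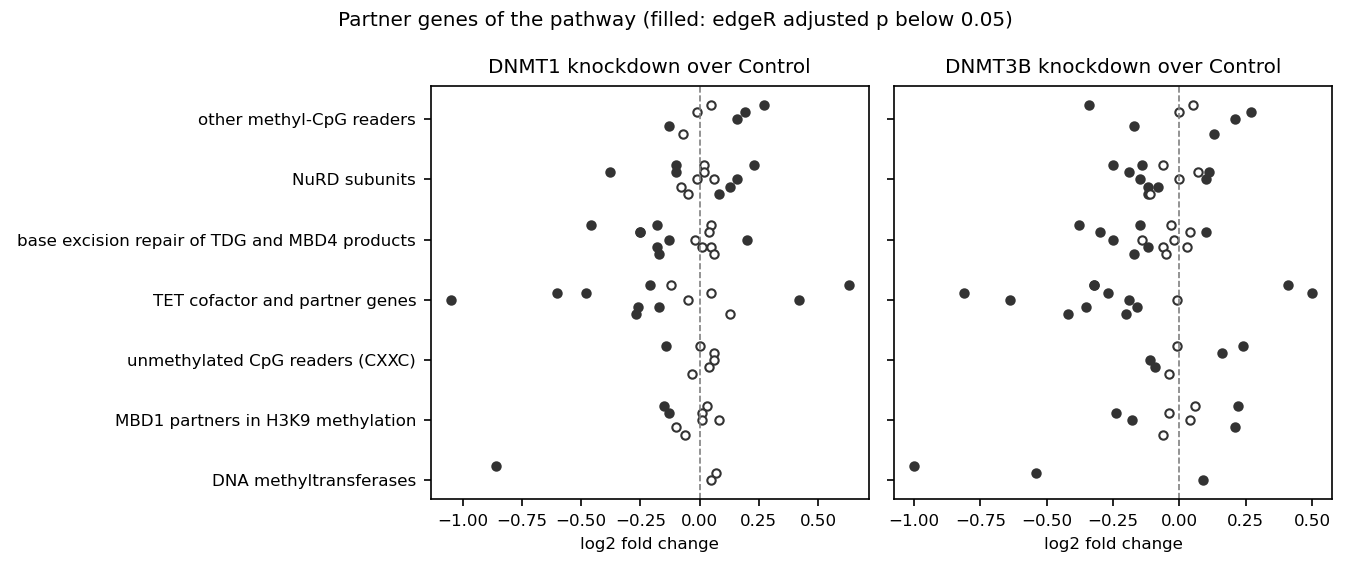
Log2 fold change of every tested gene in 7 lists of partner genes, for DNMT1 knockdown over Control and DNMT3B knockdown over Control. Each point is a gene, filled where the edgeR adjusted p was below 0.05, with vertical offsets only to separate points. With DNMT3B knockdown 10 points of the TET cofactor row are called falls and 2 called rises, and the leftmost points of the lowest row are the knocked-down genes DNMT1 (55.0% of Control) and DNMT3B (49.9% of Control), each in its own knockdown.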

How the data were processed

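TRIzol lysates were purified on columns, depleted of rRNA and made into libraries for MGI sequencing, per the labels' protocols. The authors deposited raw read counts per gene symbol for 9 libraries. STAR, featureCounts and DESeq2 with GRCh38 (hg38) are named in the submitters' processing notes; for versions, annotation and strand use, the sources used here give nothing. In R 4.3.3, genes passing filterByExpr were scaled by TMM and fitted with edgeR 4.0.16 (quasi-likelihood, all 9 libraries, group as the only term), with Benjamini-Hochberg adjustment over 16660 genes. A standard error is the log2 fold change divided by the square root of F. RPKM used the union of GENCODE 29 exons. Single values per library were compared by exact permutation.

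All 9 members and up to 3 called genes per partner list with the smallest adjusted p in each comparison with Control are named, with the 3 nearest patterns of the 3 members with the smallest p across groups. One gene that this rule names is not reported here. The overlapping genes TET2-AS1 and IFT122, and GATAD2A, CHD4, FBXL19, SMUG1 and GADD45G from the lists, were named after their values were seen. Members and lists were chosen with earlier results of these data known. The fit was tested on simulated counts. No 2 libraries of a group were alike within counting error (chi-square over its degrees of freedom from 1.80 to 3.70). That does not show that they came from separate cultures. Each library was counted as 1 replicate. Alternatives were other scalings and filters, DESeq2 1.42.0, limma-voom (limma 3.58.1), fits of only the groups compared, a replicate block, thinning to the smallest library total, other gene lengths and leaving out each library.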

Additional observations from a re-analysis of the deposited data

Results flagged for a closer look

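The effects of the 2 knockdowns differed in the direct test for 5 of the 9 genes, at edgeR adjusted p below 0.05, where 45.2% of all tested genes passed, so the count is near that of genes in general. The log2 fold change of DNMT1 knockdown over DNMT3B knockdown was 0.37 for MBD3 (adjusted p = 1.42e-09), -0.40 for TDG (adjusted p = 1.65e-08), -0.23 for MBD1 (adjusted p = 2.43e-06), -0.16 for TET3 (adjusted p = 0.000248) and -0.10 for TET2 (adjusted p = 0.0286). All 3 DNMT1 knockdown libraries lay on the stated side of all 3 DNMT3B knockdown libraries for MBD3, TDG, MBD1 and TET3, and the ranges of TET2 overlapped. These differences were flagged because a contrast of each knockdown with the same Control differed between the knockdowns.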

How the results depend on the processing

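Of 513 recomputed log2 fold changes of the 9 genes (3 comparisons under 19 alternatives), 494 kept their direction and their side of the threshold, 10 lost the call, 1 gained it and 8 changed sign. The lost calls were MBD2 with DNMT1 knockdown (6 alternatives, adjusted p up to 0.224) and TET2 between the knockdowns (4, up to 0.134); the gained call was TDG with DNMT3B knockdown. The sign changes concerned values near 0 that were never called. MBD4 with DNMT3B knockdown was at 0.00 without scaling, with the 1 CPM filter and after thinning, and from -0.03 to 0.03 with each library left out in turn, changing sign without Control replicate 1 (0.01) or 2 (0.02) or DNMT3B knockdown replicate 2 (0.03). TET1 between the knockdowns ran from -0.06 to 0.03 with each library left out, positive without DNMT1 knockdown replicate 2 or DNMT3B knockdown replicate 1. The number of members called stayed at 5 to 6 with DNMT1 knockdown, 7 to 8 with DNMT3B knockdown and 4 to 5 between the knockdowns, and the number of all genes called at 5718 to 7132, 6706 to 8187 and 6323 to 7640.

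Fitted with the replicate number as a block, 6796, 7789 and 7379 genes were called in the 3 comparisons, and the block changed no call of the 9 genes. Same-numbered libraries deviated together in no comparison for all 3 pairs (correlations -0.27 to 0.30), so the numbers gave no sign of pairing. Correlations of differently numbered libraries ran from -0.32 to 0.30. Between DNMT1 knockdown and Control they were positive only for replicates 2 and 3 (0.30) and 3 and 2 (0.19), in that order of groups. Of the same-numbered pairs there, only replicate 1 was positive (0.30). Between DNMT3B knockdown and Control the highest were 0.29 (replicates 1 and 2) and 0.18 (2 and 1). Whether libraries were paired under other numbers was not tested, and no fit used such pairs. With the longest transcript as gene length the MBD3 to MBD2 log2 ratio moved to 0.95, 0.53 and 1.21 in DNMT1 knockdown, DNMT3B knockdown and Control, the TET1 share to 12.8%, 11.8% and 10.7%, the TET2 share to 27.5%, 27.0% and 26.3% and the TET3 share to 59.7%, 61.2% and 63.0%. Control levels moved to 22.9 (MBD1), 15.4 (MBD2), 35.5 (MBD3), 9.40 (MBD4), 7.90 (TET2), 18.9 (TET3), 14.8 (TDG) and 15.9 (UHRF2) RPKM. The partner lists, whose recomputation was chosen after seeing the data, gave 6 to 8 falls of NuRD subunits and 9 to 10 of TET cofactor genes with DNMT3B knockdown.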
